A study of Homo sapiens with 2 samples.

Results

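Occupancy of the chromatin remodeller CHD4 was examined at the genes of the classical axon guidance ligands and receptors, which were the semaphorins, plexins, neuropilins, Eph receptors, ephrins, ROBO receptors, SLIT ligands, netrins and netrin receptors. Membership was decided by gene symbol alone among the protein-coding genes of GENCODE release 44 mapped to GRCh37, and gave 69 of 20162 genes, 35 coding for ligands and 34 for receptors. A CHD4 peak was counted at a gene when at least 1 bp of it overlapped the gene or the 2000 bp before its start, and 433 of the 60126 peaks of the list lay at these genes. The data come from 1 CHD4 ChIP-seq library and 1 input library of 501Mel, an established human melanoma cell line, with no treatment named in the labels. Both libraries were made from sonicated chromatin fixed with 0.4% paraformaldehyde. There were no replicates, so no spread between samples could be given and no difference was tested. The deposited peak list holds no read counts, and the depth behind each peak is therefore not known from it. It gives no expression values either, and the label of the cell line could not be checked against marker genes.

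CHD4 is the ATPase of the NuRD complex, which moves nucleosomes and carries histone deacetylases, and is known for regulating genes from both promoters and distal elements. Axon guidance cues steer growing axons and migrating cells by attraction or repulsion. Semaphorins signal through plexins, with neuropilins as co-receptors of the secreted class. Ephrins are bound to the membrane and activate the Eph receptor tyrosine kinases of a neighbouring cell, SLIT proteins repel through ROBO receptors, and netrins attract through DCC or repel through UNC5 receptors. The same cues guide neural crest cells, the embryonic source of melanocytes, and many are expressed in melanoma.

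The sequences below show what CHD4 peaks of this gene family looked like, from the GRCh37 plus strand. They are the central bases of 5 of the 10 peaks of highest fold enrichment, of the promoter peaks of *EFNA1* and *SEMA4B*, and the first 200 bases of an intron 1 peak of *EFNA3*, which was chosen after its sequence was seen. Fold enrichment is the ratio of ChIP signal to background given by the authors' peak caller. Capitals mark matches on either strand to TGACTCA (AP-1), TCACGTG or TCATGTG (the E-box recognised by MITF, the master factor of melanocytes), ACAAAGG (SOX factors) and GGGCGG (the GC box).
SLIT3, chr5:168498759-168498910: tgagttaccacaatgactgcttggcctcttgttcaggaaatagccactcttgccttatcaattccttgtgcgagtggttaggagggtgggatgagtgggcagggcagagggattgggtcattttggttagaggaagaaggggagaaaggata
ROBO2, chr3:76615039-76615238: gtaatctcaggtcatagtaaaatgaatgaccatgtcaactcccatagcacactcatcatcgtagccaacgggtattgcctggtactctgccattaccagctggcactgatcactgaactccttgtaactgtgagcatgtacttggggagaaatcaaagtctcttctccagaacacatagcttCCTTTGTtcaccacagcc
NTN5, chr19:49164262-49164461: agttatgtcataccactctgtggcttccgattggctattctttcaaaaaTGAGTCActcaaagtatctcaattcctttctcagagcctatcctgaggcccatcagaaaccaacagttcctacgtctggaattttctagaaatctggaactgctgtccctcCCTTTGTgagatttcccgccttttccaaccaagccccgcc
SEMA6B, chr19:4567747-4567946: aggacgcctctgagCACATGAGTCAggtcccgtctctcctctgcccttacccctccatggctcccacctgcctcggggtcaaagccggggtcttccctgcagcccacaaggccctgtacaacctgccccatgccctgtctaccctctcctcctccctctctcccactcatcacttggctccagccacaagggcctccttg
EPHB3, chr3:184296595-184296794: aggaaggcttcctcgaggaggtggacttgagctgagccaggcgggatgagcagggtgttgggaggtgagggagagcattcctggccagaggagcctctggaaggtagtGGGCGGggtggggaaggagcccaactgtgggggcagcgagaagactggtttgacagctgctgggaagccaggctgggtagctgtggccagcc
EFNA1, chr1:155099426-155099625: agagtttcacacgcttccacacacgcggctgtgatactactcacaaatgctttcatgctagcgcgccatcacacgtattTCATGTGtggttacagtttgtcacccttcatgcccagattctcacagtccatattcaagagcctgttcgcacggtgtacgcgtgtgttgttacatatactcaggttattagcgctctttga
SEMA4B, chr15:90743799-90743998: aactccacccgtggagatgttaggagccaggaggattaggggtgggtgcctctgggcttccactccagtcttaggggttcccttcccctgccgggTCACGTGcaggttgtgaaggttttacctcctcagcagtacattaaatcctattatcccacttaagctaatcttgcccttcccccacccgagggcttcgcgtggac
EFNA3, chr1:155053524-155053723: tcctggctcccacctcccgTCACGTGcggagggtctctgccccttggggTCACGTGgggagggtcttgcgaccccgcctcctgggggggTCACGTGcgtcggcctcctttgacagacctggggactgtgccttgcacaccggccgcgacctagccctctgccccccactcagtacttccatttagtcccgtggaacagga

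The *SLIT3* sequence is the whole peak of 152 bp, in intron 4, and holds none of the motifs. In *SEMA6B* an E-box and an AP-1 match overlap, so that their letters form a single run of capitals. The *NTN5* window, which lies beyond the end of the gene, holds an AP-1 and a SOX match. In *EFNA3* the letters TCACGTG occur 3 times within the 200 bases, with 30 and 40 bp from the beginning of a match to that of the next. A match describes the letters only and is not evidence of binding.

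A CHD4 peak, at any confidence the list allows, lay at 53 of the 69 genes, or 76.8% (Wilson 95% interval 65.6 to 85.2%, for counting error alone). By the same rule, 58.3% of all protein-coding genes had a peak. Axon guidance genes are long, with a median length of 69076 bp against 27220 bp over all protein-coding genes, and longer genes held more peaks. When each gene was given the share of its length class, over 20 classes, the sum came to 47.3 genes. The observed number was 1.12 times this sum, and its counting interval of 0.957 to 1.24 times included a ratio of 1. Of the 69 genes, 16 had no peak, 18 had 1, 17 had 2 to 4 and 18 had 5 or more. The last number was 26.1% of the family against 11.4% of all protein-coding genes, and the length classes summed to 16.5. Pooled over their bases, the genes carried 2.995 peaks per 100 kb, close to the 2.95 of all protein-coding genes.

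The 433 peaks were unevenly spread. *SEMA5A* held 95, *EPHA3* 53, *ROBO2* 50 and *ROBO1* 46, and these 4 genes together held 244 peaks, or 56.4%. All 4 were among the 20 protein-coding genes with most peaks, and *SEMA5A* was at rank 1, ahead of the 66 peaks of *SOX6*. The other 65 genes held 189 peaks, or 1.77 per 100 kb. Since the 4 genes were left out for having the most peaks, that density was not compared with other genes. Taken gene by gene, the median density was 2.49 peaks per 100 kb over the 69 genes and 1.80 over all protein-coding genes.

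**Figure D1:**
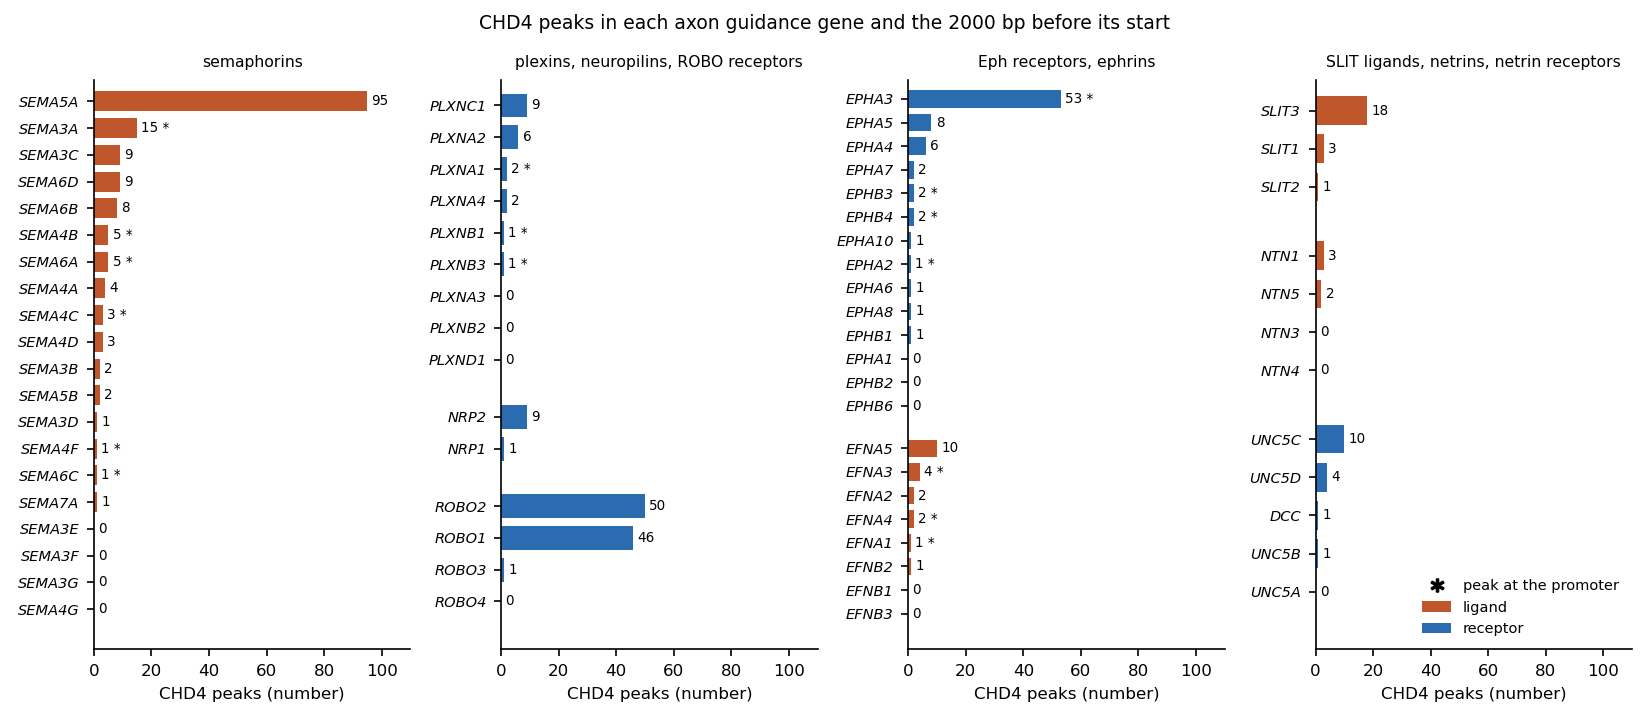
Number of CHD4 peaks in each of the 69 genes, by family, with ligand genes in orange and receptor genes in blue. The number stands beside each bar and an asterisk marks genes with a peak within 1000 bp of the canonical start, which were 16. *SEMA5A*, *EPHA3*, *ROBO2* and *ROBO1* stand above all others.

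The peaks at these genes were of ordinary strength. Their fold enrichment ran from 2.31 to 5.68 with a median of 3.05, and the median was 3.09 both over all peaks at protein-coding genes and over the list. The median was 2.91 in the 4 genes with most peaks and 3.22 in the other 65. The −log10 q, the peak caller's measure of confidence corrected for multiple testing, had a median of 1.95, and 48.3% of the peaks reached 2 against 48.5% of the list. Only 9 peaks, or 2.08%, reached a −log10 q of 5, against 2.23% of the list. They lay in 8 genes, or 11.6% of the family, whereas 4.73% of all protein-coding genes had such a peak and the length classes summed to 4.97 genes. The observed number was 1.61 times this sum, and its counting interval of 0.833 to 2.95 times included a ratio of 1. The 8 genes were *SEMA4F*, *SLIT3*, *EPHA4*, *ROBO2*, *NTN5*, *SEMA6B*, *EPHB3* and *EFNA1*, 5 for ligands and 3 for receptors.

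**Figure D2:**
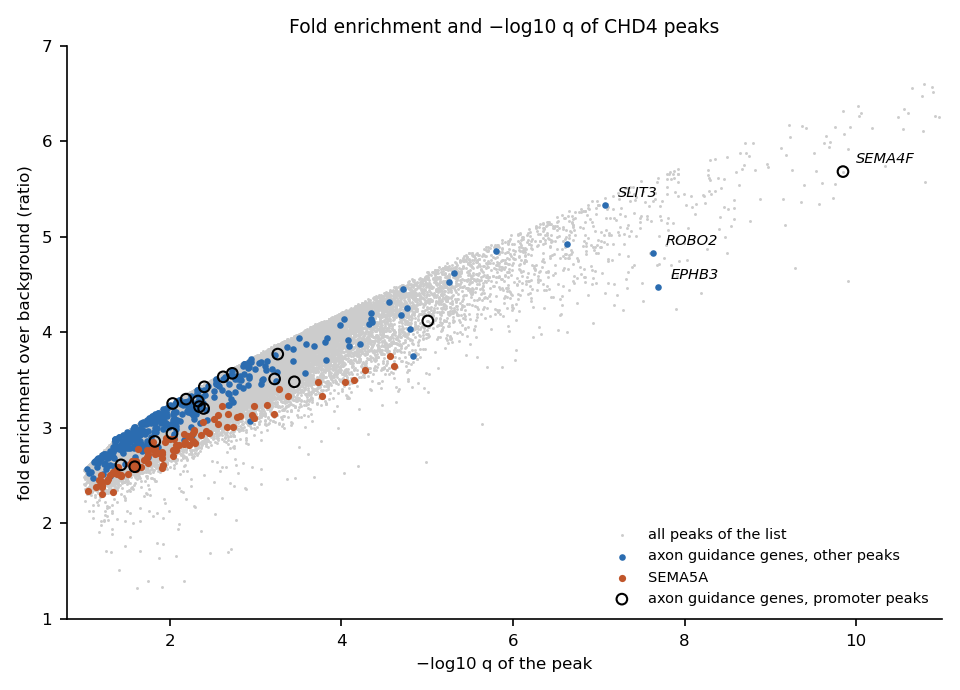
Fold enrichment over background against −log10 q for all peaks of the list with a −log10 q up to 11 (grey), for *SEMA5A* (orange), for the other genes of the family (blue) and for the 17 promoter peaks of the family (open circles). At a given −log10 q the *SEMA5A* peaks lie low in the cloud, and the promoter peak of *SEMA4F*, at a fold enrichment of 5.68, lies highest of the family.

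Few of the peaks lay at promoters. A peak within 1000 bp of the start of the canonical transcript was found at 16 of 69 genes, or 23.2% (interval 14.8 to 34.4%), whereas 34.6% of all protein-coding genes had a promoter peak and the length classes summed to 23.7 genes. Among genes with any peak, the share was 30.2% (interval 19.5 to 43.5%) against 59.4%, a contrast not matched for gene length. Counted over peaks, 17 of 433 lay at the promoter of their own member gene, or 3.93%, and without the 4 genes with most peaks 8.47% did. Of all peaks at protein-coding genes, 18.5% lay at the promoter of any such gene, which is a wider count and not a like measure. The gap was widest among genes between 100 and 300 kb, where 1 of 17 had a promoter peak (5.88%) against 36.1% of protein-coding genes of that length. It was small among genes between 20 and 100 kb, at 38.9% against 39.5%. When the start of any annotated transcript was allowed, 27 genes had a promoter peak, with a counting interval of 28.5 to 50.9% that included the 42.4% of all protein-coding genes. At a −log10 q of at least 2, 14 genes had one, and the interval of 12.5 to 31.2% included the 21.4% of all. With a promoter of 2000 bp on either side, 22 genes had one, and the interval of 22.1 to 43.6% included 39.3%. The gap over genes thus depended on the threshold and on the definition of the promoter.

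The strongest promoter peak was that of *SEMA4F*, a transmembrane semaphorin, with a fold enrichment of 5.68 (−log10 q 9.85.) It ranked 83 of all 60126 peaks by fold enrichment. The promoter peak of *EFNA1*, for ephrin-A1, was next with 4.12, centred 826 bp before the start. *PLXNB1*, for a semaphorin 4D receptor, followed with 3.77 over exon 1. *EPHB4* had 3.57, *SEMA6A* 3.53, *EPHA2* 3.51 and *EPHB3* 3.48, all with centres before the start. *SEMA3A* had 3.43 in a peak of 161 bp, *SEMA4B* 3.30 and *PLXNA1* 3.28. The other promoter peaks, at *PLXNB3*, *EFNA4*, *SEMA4C*, *SEMA6C*, *EFNA3* and *EPHA3*, ran from 2.59 to 3.26, and *EFNA3* had 2 of them. All promoter peaks but that of *SEMA4F* thus had a fold enrichment of at most 4.12.

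Semaphorins, the largest family, had a peak at 16 of 20 genes, 164 peaks in all and 6 promoter peaks. For this and the later families, 58.3% of all protein-coding genes had a peak and 34.6% a promoter peak, unmatched for length. *SEMA5A*, a transmembrane semaphorin with thrombospondin repeats on chromosome 5, carried peaks along its whole length of 511 kb, from 1.37 kb before its 5′ end to 511 kb after it, with 22, 27, 26 and 19 peaks centred in the 4 equal parts of its length from the 5′ end. Together the peaks covered 35.04% of the gene, the highest share among 3666 protein-coding genes of 100 kb or more, for which the median was 1.04%. Its longest peak, centred in intron 1 at chr5:9433743-9458798, measured 25056 bp and was also the longest of the whole list, with a fold enrichment of 3.48. The next, of 17215 bp, ranked 5 in the list by length. In all, 13 *SEMA5A* peaks measured 3000 bp or more. The strongest lay in intron 5 with a fold enrichment of 3.75 (−log10 q 4.57), and 11 of its peaks reached a −log10 q of 3 but none of them 5.

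The secreted semaphorins of chromosome 7 differed among themselves, although all 4 lie within 4.44 Mb. *SEMA3A*, a repellent of axons and of endothelial cells, had 15 peaks, the strongest at 3.68 in intron 6. *SEMA3C* had 9 peaks, which covered 9.13% of the gene, with a strongest peak of 4.08 and 7224 bp in intron 13. *SEMA3D*, in contrast, had 1 peak and *SEMA3E* none. The secreted semaphorins of chromosome 3 had few, with 2 peaks at *SEMA3B* and none at *SEMA3F* or *SEMA3G*.

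Among the membrane semaphorins, *SEMA6D* had 9 peaks and *SEMA6B* 8. *SEMA6B* is only 39.2 kb long, so that its density reached 204 peaks per Mb, and its strongest peak (4.53) lay 8151 bp before the canonical start, inside a longer transcript. *SEMA6D* was strongest at 4.18 in intron 1. *SEMA4B* and *SEMA6A* had 5 peaks each, *SEMA4A* 4, *SEMA4C* and *SEMA4D* 3 and *SEMA5B* 2. The strongest *SEMA4B* peak, with 4.09, lay before the 5′ end of the gene. *SEMA4F* and *SEMA6C* had a promoter peak and nothing else, while *SEMA4G* had none. *SEMA7A*, for the membrane-anchored semaphorin that binds plexin C1, had 1 peak, but this measured 6205 bp, lay in intron 1 and covered 25.2% of the gene at a fold enrichment of 3.58.

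Plexins, the semaphorin receptors, had a peak at 6 of 9 genes, 21 peaks and 3 promoter peaks. *PLXNC1*, for the receptor of semaphorin 7A, held 9 of them over 11.8% of its length. Its strongest peak (4.20) and a peak of 3.90 and 3160 bp both lay in intron 9, and another of 7264 bp was centred in intron 1 with 3.70. *PLXNA2* had 6 peaks, with a strongest of 4.14 in intron 4. *PLXNA1* and *PLXNA4* had 2 and *PLXNB1* and *PLXNB3* had 1, which lay at the promoter in both. *PLXNA3*, *PLXNB2* and *PLXND1* had none. The neuropilins were unequal, with 9 peaks at *NRP2* and 1 at *NRP1*. The strongest *NRP2* peak (4.31) lay in intron 2 and holds an E-box, an AP-1 and a SOX match, and 5 of the 9 peaks were centred in the first of 4 equal parts of the gene.

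Eph receptors had a peak at 11 of 14 genes and 78 peaks, of which *EPHA3* alone held 53. These were densest towards the 5′ end, with 19, 16, 13 and 3 peaks centred in the 4 equal parts of its length and 24 in intron 3, and covered 15.8% of the gene. The strongest (4.03) was centred in exon 6, and 5 measured 3000 bp or more. *EPHA5* had 8 peaks with a strongest of 3.88 in intron 15, and *EPHA4* had 6. The strongest *EPHA4* peak lay in intron 3 at chr2:222392178-222393241, with a fold enrichment of 4.85 (−log10 q 5.81.) *EPHB3* combined a promoter peak with a peak of 231 bp in intron 9 at chr3:184296580-184296810, which had a fold enrichment of 4.47 (−log10 q 7.69.) *EPHB4* had 2 peaks, of which the promoter peak also lies in *SLC12A9*, and *EPHA7* had 2. *EPHA2*, *EPHA6*, *EPHA8*, *EPHA10* and *EPHB1* had 1 each, although *EPHA6* spans 947 kb. *EPHA1*, *EPHB2* and *EPHB6* had none.

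Ephrins, their ligands, had a peak at 6 of 8 genes and 20 peaks. *EFNA5*, for ephrin-A5, held 10, of which 9 were centred in its long first intron, with a strongest of 3.46. The ephrin-A genes of chromosome 1, *EFNA4*, *EFNA3* and *EFNA1*, lie within 71.2 kb and held 7 peaks, with promoter peaks at all 3. Peaks covered 39.5% of *EFNA3* and 28.2% of *EFNA4*. The peaks of both genes also lie in the readthrough gene *EFNA4-EFNA3*, and those of *EFNA4* in *ADAM15* as annotated, so that they cannot be given to a single gene. In the whole family, 8 of the 433 peaks lay at another protein-coding gene as well and none at 2 members. *EFNA2* had 2 peaks and *EFNB2* 1, whereas *EFNB1* and *EFNB3* had none.

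The ROBO receptors *ROBO2* and *ROBO1* lie next to each other on chromosome 3, and all 96 peaks of the 3.86 Mb that they span were inside the genes. The peaks were not spread evenly along them. In *ROBO1*, no peak was centred in the first 748 kb, and all 46 lay from there to 1108 kb after the 5′ end. The first of them was centred 426 bp before the start of the shorter coding transcripts, at 749 kb, with a fold enrichment of 3.45. The strongest (3.94) lay in intron 10. In *ROBO2*, 40 of the 50 peaks were centred between the transcript starts at 404 kb and 1133 kb, and only 5 after the canonical start at the latter. A further peak, with 3.09, was centred 855 bp before the start at 404 kb. The strongest *ROBO2* peak lay in the same stretch at chr3:76614776-76615502, with a fold enrichment of 4.83 (−log10 q 7.63.) *ROBO3* had 1 peak, of 3.68, and *ROBO4*, the endothelial member, had none.

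Of the SLIT ligands, *SLIT3* held 18 peaks, 14 of them in intron 4. A peak of 152 bp there, at chr5:168498759-168498910, had a fold enrichment of 5.33 (−log10 q 7.08), the second highest fold of the family. A further intron 4 peak had 4.93. *SLIT1* had 3 peaks and *SLIT2*, of 369 kb, had 1. The SLIT genes therefore differed by a wide margin. None of the 3 had a promoter peak, where 34.6% of all protein-coding genes had one.

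**Figure D3:**
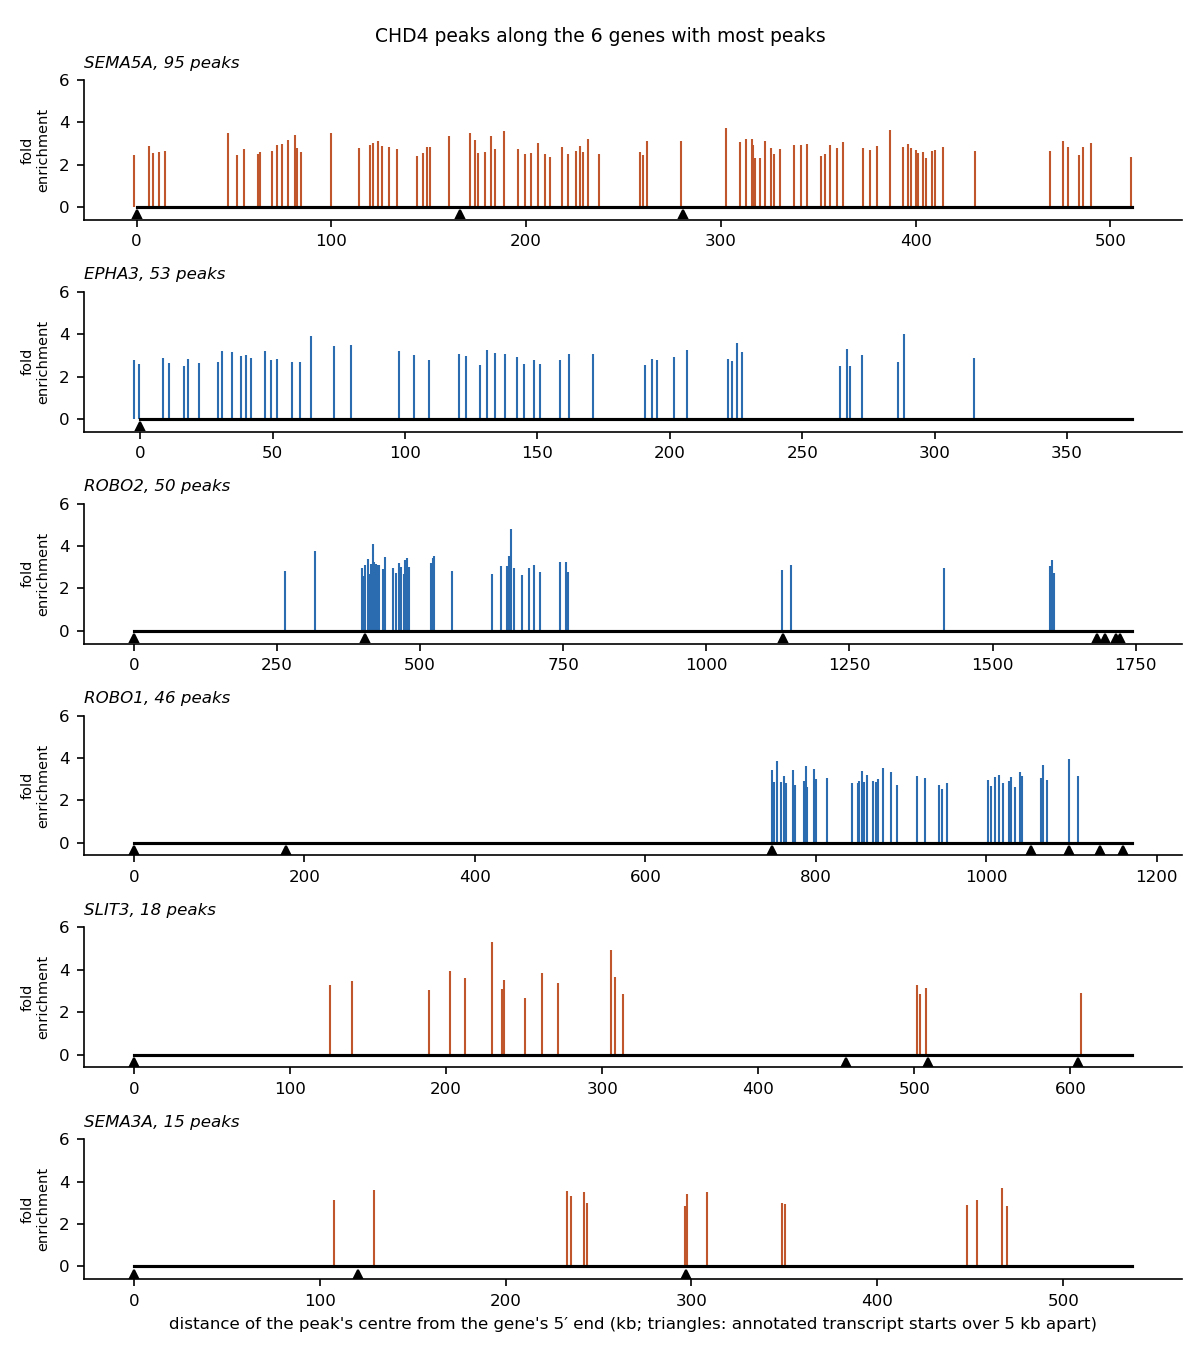
CHD4 peaks along the 6 genes with most peaks, drawn at the distance of the peak's centre from the 5′ end of the gene in kb, with the height giving the fold enrichment. Triangles mark annotated transcript starts. In *ROBO1* the 46 peaks begin at 748 kb, beside an internal start, and in *ROBO2* most lie after 404 kb, while *SEMA5A* is filled along its length.

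Netrins and their receptors had few peaks for their length, at 1.35 and 0.694 per 100 kb pooled, against 2.95 over all protein-coding genes. Eph receptors (2.70), SLIT ligands (1.84) and plexins (1.90) also lay below it, and the other families above it. Single genes differed, with 17.1 at *NTN5*, 2.59 at *UNC5C* and 0.0836 at *DCC*. A peak was nonetheless present at 2 of 4 netrin genes and at 4 of 5 receptor genes. *NTN1*, for netrin-1, had 3 peaks, all in intron 3, with a strongest of 4.14. *NTN5* had 2, and the stronger, of 4.62 (−log10 q 5.31), overlapped the last 51 bp of the gene and was centred beyond its end. *NTN3* and *NTN4* had none. Among the receptors, *UNC5C* held 10 peaks, 7 of them in intron 1, with a strongest of 3.83, and *UNC5D* held 4, with a strongest of 4.45 in intron 4. *UNC5B* had 1 peak and *UNC5A* none. *DCC*, with 1196 kb among the longest genes of the family, had a lone peak of 668 bp, wholly within its last exon. None of the 9 netrin or netrin receptor genes had a promoter peak, beside 34.6% of all protein-coding genes, a share not matched for length.

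**Figure D4:**
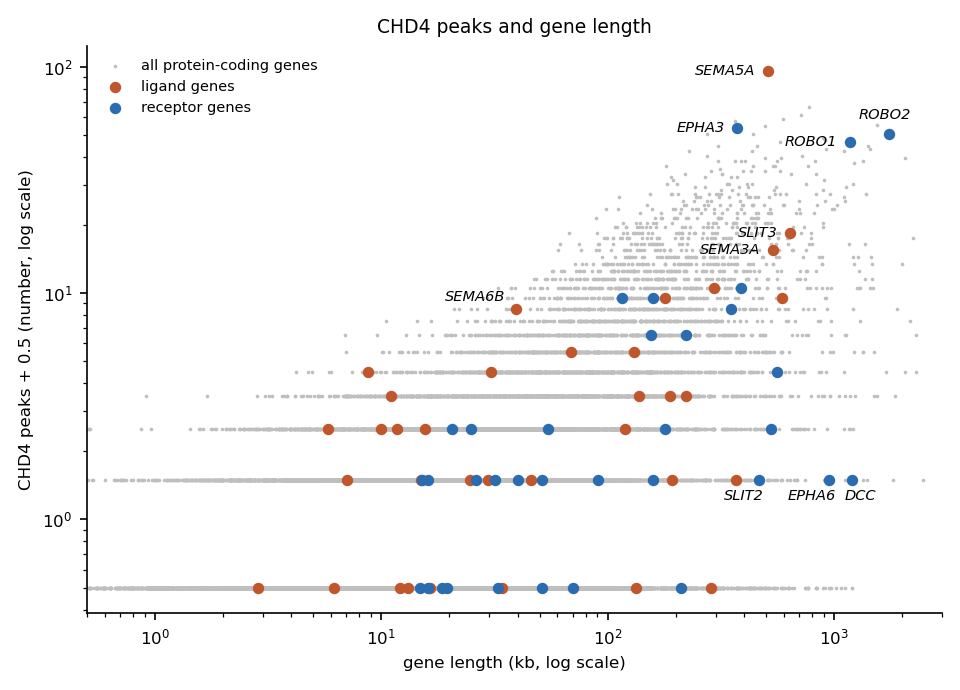
Number of CHD4 peaks, plus 0.5, against gene length, both on log scales, for all protein-coding genes (grey), ligand genes (orange) and receptor genes (blue). The number rose with length, with a Spearman rho of 0.496 over the 69 genes and of 0.478 over the 20162, and genes of like length ranged from the 1 peak of *DCC* to the 46 of *ROBO1*.

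Since genes of like length differed, each long gene was also compared with its surroundings. All points of this comparison share the same library, and neighbouring genes share flanks. Among the 32 members of 100 kb or more, 16 had more peaks per Mb inside than in the 1 Mb on either side, against 30.5% of the 3666 protein-coding genes of that length, and 9 had fewer than on either side, against 41.5%. The median difference between the inside and the mean of both sides was 4.27 peaks per Mb for the members and -4.0 for all. *SEMA5A* had 184 per Mb inside against 23 and 20 on its sides, and *EPHA3* had 136 against 17 and 14. *ROBO1* had 39.3 per Mb with no peak in either flank, and *NRP2* had 68.9 against 1 and 42. *EPHA5*, *EPHA7*, *EFNA5*, *NRP1*, *PLXNA2*, *ROBO2*, *SEMA3A*, *SEMA3C*, *SEMA4D*, *SLIT3*, *UNC5C* and *UNC5D* were the other genes denser than both sides. *EPHA6*, *EPHB1*, *EPHB2*, *NTN4*, *PLXNA4*, *SEMA3E*, *SEMA5B*, *SLIT1* and *SLIT2* were sparser than both. Some calls of either kind rested on few peaks, and a peak more or less would change them. *NRP1* had 1 peak (6.30 per Mb against 5 and 4) and *EPHA7* 2 (11.1 against 9 and 4). *UNC5D* had 4 (7.13 against 0 and 6), and the sparser *SLIT1* 3 (15.96 against 16 and 51).

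**Figure D5:**
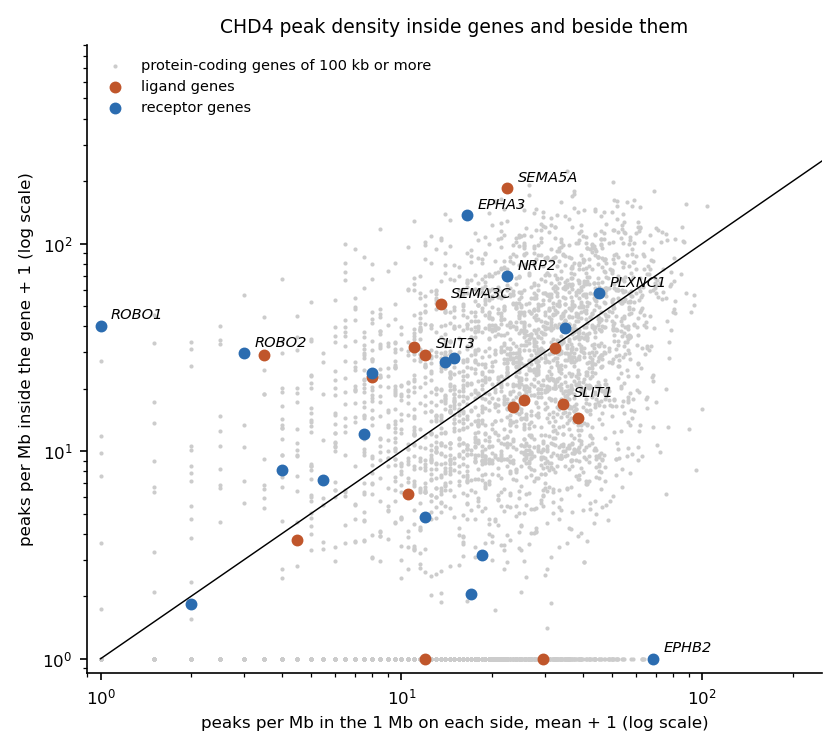
CHD4 peaks per Mb inside genes of 100 kb or more against the mean of the 1 Mb on each side, both plus 1 and on log scales, with the line of equality. Protein-coding genes are grey, ligand genes orange and receptor genes blue. *SEMA5A*, at 184 per Mb inside, and *EPHA3*, at 136, lie far above the line, while *EPHB2*, with no peak, lies far below it.

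The *SEMA5A* peaks were many but low for their −log10 q. Among peaks with a −log10 q between 1.5 and 2.5, the 50 in *SEMA5A* had a median fold enrichment of 2.78 against 3.06 over the list, of which 6.65% was lower. The 14 such peaks in its flanks had 2.69, whereas all such peaks of chromosome 5 had 3.05, so the low values held for the surroundings of the gene too. In *EPHA3* the median was 2.95, beside 2.96 in its flanks and 2.97 on chromosome 3. In *ROBO1* and *ROBO2* it was 3.06 and 3.07, as over the list. The background level behind these ratios is not in the list, and its part in the number of *SEMA5A* peaks was not tested.

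Within the genes, occupancy was mainly intronic and far from the start. The centre lay in a later intron of the canonical transcript for 63.3% of the peaks, against 43.5% for all pairs of a peak and a protein-coding gene. It lay in the first intron for 13.9% against 21.2%, in an exon for 2.31% against 4.83%, and before the start of the gene for 4.62% against 14.3%. None of these shares was matched for gene length, and the axon guidance genes are long. Without the 4 genes with most peaks, 54.0% lay in later introns and 20.1% in the first. The centre lay within the gene but outside its canonical transcript for 15.2% in both sets. For the members, *ROBO2* gave 45 of these 66 peaks and *SEMA3A* 8. The median peak measured 672 bp against 613 bp over the list, and 5.54% measured 3000 bp or more against 4.23%. Of these 24 long peaks, 13 lay in *SEMA5A*, 5 in *EPHA3* and 2 in *PLXNC1*.

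Base composition differed between groups of peaks. The median GC content was 40.1% over the 433 peaks, 37.5% in the 4 genes with most peaks, 44.8% in the others and 57.4% at promoters, beside 43.8% over the list. The GC box was found within 250 bp of the centre in 39 of 433 peaks, or 9.01% (interval 6.66 to 12.1%), against 13.4% of the list. In the 4 genes with most peaks the share was 2.87%, whereas it was 16.9% (interval 12.3 to 22.9%) in the other 65 genes. An AP-1 match was found in 13.2% (interval 10.3 to 16.7%) against 10.8% of the list. In the other 65 genes the AP-1 share was 15.9% (interval 11.4 to 21.8%). The E-box share was 13.6% (interval 10.7 to 17.2%) against 14.0% of the list, and 14.3% in the other 65 genes. The SOX share was 12.7% (interval 9.89 to 16.2%) against 11.3%, and 16.4% (interval 11.8 to 22.3%) in the other 65. The CTCF motif was found in 7 peaks, or 1.62% (interval 0.785 to 3.30%), against 3.35%, and in 2.12% (interval 0.826 to 5.31%) of the peaks of the other 65. Over all 433 peaks, the AP-1, E-box and SOX intervals included the share of the list and those of the GC box and CTCF lay below it. Without the 4 genes, the intervals of the GC box, the E-box and CTCF included the share of the list and those of AP-1 and SOX lay above it, so these readings depended on the 4 genes. In equal windows 5000 bp away from the same 433 peaks the shares were 8.08% for AP-1, 9.70% for the E-box, 10.4% for SOX, 6.70% for the GC box and 1.62% for CTCF. Around the list, they were 7.88%, 9.09%, 9.02%, 9.79% and 1.55% in the same order. Around the peaks of the other 65 genes, they were 7.94% (interval 4.87 to 12.7%) for AP-1 and 12.2% (interval 8.25 to 17.6%) for SOX. Both of these intervals overlapped those of the peaks of the same genes. Peaks of a gene share its surroundings and are not independent of each other.

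The wider pathway was counted by the same rule over a list chosen for function. Of 26 co-receptors, adhesion partners and further cues, 17 had a peak and 7 a promoter peak, where the length classes summed to 19.6 and 9.06. *MET*, for the hepatocyte growth factor receptor that associates with plexins, had 16 peaks over 19.6% of its length, and *NTNG1*, for netrin-G1, had a peak with a −log10 q of 7.94. Among the neuronal adhesion genes, *CNTN1* had 16 peaks, *L1CAM* and *NFASC* had 1 and *DSCAM*, *DSCAML1*, *CNTN2*, *NCAM1* and *NRCAM* had none. Of 51 intracellular effectors, 39 had a peak and 21 a promoter peak, beside sums of 38.7 and 17.5. *TRIO*, for an exchange factor of RAC1 and RHOA, held 38 peaks, and *SRGAP1*, for a partner of ROBO receptors, 33.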

How the data were processed

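CHD4 ChIP-seq in 501Mel cells was represented by 1 ChIP library and 1 input library, and no comparison between groups of samples was possible. Per the submitters' processing notes and the paper's methods, the authors mapped reads to hg19 with Bowtie 1.0.0 and called broad peaks with MACS2 2.1.1.20160309. That the input served as control of the call is not given in the sources used here. The deposited values are the fold enrichment of each peak over background, a ratio, and its −log10 q, both as the authors' peak caller gave them. They served to describe, rank and filter peaks. Read counts are not part of the list. The depth is therefore unknown from it, and intervals reflect counting error alone.

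Peaks, on hg19, were overlapped with GENCODE 44 as mapped to GRCh37, and sequences were taken from that build. No peak ran past the end of a chromosome. A promoter was 1000 bp on either side of the start of the canonical transcript. Members were set beside all protein-coding genes and beside the sum of the shares of 20 length classes. Every gene is named with its number of peaks. The fold enrichment is given for the 10 peaks of highest fold enrichment, for the strongest peak of genes with 5 or more and for the 10 strongest promoter peaks, and other details were chosen after their values were seen. Sequences are printed for a selection of peaks, and the others are not reported here. Members, lists and alternatives were chosen with earlier results of these data known. The overlap, length and motif steps were tested on simulated data. Alternatives covered thresholds, regions, promoter widths, merging and long genes. Python 3.11.15, numpy 2.4.6, pandas 2.3.3 and scipy 1.17.1 were used.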

Additional observations from a re-analysis of the deposited data

How the results depend on the processing

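With 1 library of each kind, nothing here bears on biological variation, and the list does not give the depth behind a peak. No paired analysis was possible because no groups of samples share replicates. Of 37 alternatives, 18 left the value within 1.5 times the reported count or inside its counting interval, and 19 moved it. At a −log10 q of at least 2, there were 209 peaks with a median fold enrichment of 3.35, and 6.70% lay at a promoter. At a −log10 q of at least 5, 8 genes had a peak, and 9 peaks and 2 genes with a promoter peak were left. The ratio to the length classes was then 1.61, with a counting interval of 0.833 to 2.95. Without genes longer than 300 kb, 119 peaks were left, with a median fold of 3.22 and 12.6% at a promoter. Without the 4 genes with most peaks, an alternative chosen after seeing the data, 189 were left, with 3.22 and 8.47%. With the start of any transcript, 27 genes had a promoter peak and 9.47% of peaks lay at one. When motifs were counted anywhere in the peak, the shares were 20.3% for AP-1, 24.9% for the E-box, 19.9% for SOX and 12.5% for the GC box. Fewer peaks, fewer genes, more starts or longer windows are built into these alternatives. At a −log10 q of at least 2, 42 of 69 genes had a peak, against 43.2% of all protein-coding genes. Under the other regions, 49 to 53 of 69 had one, against 50.8 to 60.6% of all. Without genes longer than 300 kb, 38 of 54 had one, and the interval of 57.2 to 80.9% included the 58.3% of all. Without the 4 genes with most peaks, 49 of 65 had one (interval 63.7 to 84.2%), against 58.3%.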
